A study of Mus musculus with 8 samples.

Results

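C/EBPα binding was examined at 31 mouse genes of leukocyte integrins and other adhesion receptors. All 31 were found among 21887 protein-coding genes of the mm10 annotation. They comprised the β2 leukocyte integrins, the β1 integrins, the αv and platelet integrins, Itgb4 and Itgb7, the selectins P and E with the selectin ligand Selplg, immunoglobulin-type adhesion molecules, and Cd44 and Cd47. The peaks of 6 libraries were merged wherever they overlapped by 1 bp, and a region was assigned to a gene when it lay within 10 kb of the gene body. This gave 561 regions near the 31 genes, of 259446 in all.

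The libraries were made by CUT&RUN, an assay that guides a nuclease to an antibody on chromatin and sequences the small fragments it cuts loose around the bound protein. The antibody was directed against C/EBPα, and the cells were lineage-negative, KIT high to intermediate, FLT3+ progenitors sorted from mouse bone marrow. The genotypes DC, DE and WT are variants of an enhancer named for its place 165 kb from Zeb2, and the series title ties a Zeb2 enhancer to the specification of cDC1, a class of dendritic cell. Each genotype had 2 libraries, 1 in each of 2 batches, and replicate 1 was batch 1 throughout. The labels do not say what the DC and DE variants change, nor the strain, sex, age or number of animals behind a library. Whether replicates came from separate animals is therefore unknown, and p-values measure the spread between these libraries. No read totals are given, so the sequencing depth is unknown. The 2 IgG libraries, from WT cells, were not analysed here.

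Integrins are receptors made of an α and a β chain that bind the extracellular matrix or partner molecules on other cells, and they hold blood cells in the marrow or bring them to a stop on vessel walls. The β2 integrins, which pair the chain encoded by Itgb2 with that of Itgal, Itgam, Itgax or Itgad, are restricted to leukocytes, and selectins mediate the rolling that precedes firm arrest. C/EBPα is a basic leucine-zipper transcription factor that the progenitors of granulocytes and monocytes require, and genes of mature myeloid cells are among its known targets. Binding was measured here, not expression, so no value below is an amount of receptor.

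Regions called in every library overlapped the annotated promoter of 5 of the 21 genes for which a promoter was at hand, which was 23.8% of them, against 25.1% of 17492 protein-coding genes. These were Itgam (the αM chain of the phagocyte complement receptor), Itga1 and Itga4 (the collagen-binding α1 chain and the α4 chain of the Vcam1 receptor), Cd44 (a hyaluronan receptor) and Cd47 (the ligand of the inhibitory receptor SIRPα). A promoter here is the 250 bases before and 50 bases after the transcription start in RefSeq for GRCm38.p6, the assembly also named mm10. The 250 bases before the start are printed for 3 of the 5, to show how C/EBPα regions lay on promoters of differing base composition. All 3 lie on the plus strand and read 5′ to 3′, and capitals mark bases inside the called region. They are the α chain of a β2 integrin at chr7:128062390-128062639, an α chain that pairs with the β1 and β7 chains at chr2:79255176-79255425, and Cd47 at chr16:49855404-49855653.
Itgam: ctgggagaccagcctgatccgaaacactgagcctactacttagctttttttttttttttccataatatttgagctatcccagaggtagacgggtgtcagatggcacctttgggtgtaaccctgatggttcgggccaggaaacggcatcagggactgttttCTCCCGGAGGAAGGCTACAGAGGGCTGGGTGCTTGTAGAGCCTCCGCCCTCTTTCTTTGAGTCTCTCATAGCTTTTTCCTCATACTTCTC
Itga4: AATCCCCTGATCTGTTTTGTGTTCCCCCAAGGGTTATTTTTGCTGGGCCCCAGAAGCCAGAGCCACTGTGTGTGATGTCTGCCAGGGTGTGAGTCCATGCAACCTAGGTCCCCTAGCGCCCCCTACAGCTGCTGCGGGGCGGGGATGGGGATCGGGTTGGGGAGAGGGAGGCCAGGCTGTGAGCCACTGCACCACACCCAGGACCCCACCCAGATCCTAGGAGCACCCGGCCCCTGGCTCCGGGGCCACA
Cd47: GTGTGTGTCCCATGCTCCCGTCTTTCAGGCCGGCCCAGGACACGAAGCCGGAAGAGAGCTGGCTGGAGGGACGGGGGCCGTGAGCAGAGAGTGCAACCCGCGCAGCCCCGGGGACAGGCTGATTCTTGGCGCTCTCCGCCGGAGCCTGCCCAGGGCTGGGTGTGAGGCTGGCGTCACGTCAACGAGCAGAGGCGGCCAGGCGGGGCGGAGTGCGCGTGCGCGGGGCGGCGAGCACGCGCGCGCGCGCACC
The called region covered the 90 bases next to the start of Itgam and all 250 bases at Itga4 and Cd47. Its summit lay 51 bases past the start at Itgam, and 671 and 672 bases before it at Itga4 and Cd47. Cd47 has 2 promoter windows, and the distance is from the start of the printed one. The annotated body of Cd47 begins at chr16:49851328, so the bases printed for it lie inside the gene. The printed bases were 49.6% G or C at Itgam, 64.0% at Itga4 and 73.2% at Cd47. The C/EBP letters TTGCNNAA, searched on both strands, were in 0 of the 24 promoter windows of these genes and in 10.8% of 32851 windows of all genes. The PU.1 letters GAGGAAGT, also searched on both strands, were in 3 of the 24 windows (Itgav, Itgb6 and Itgb7) and in 3.20% of all windows. With no C/EBP match in these windows, matches of the pair did not overlap there, and a window without a match says nothing of the factor.

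Most of the genes carried C/EBPα regions in every genotype. A region called in both libraries of the genotype lay near 27 of the 31 genes in DC cells, against 60.7% of all protein-coding genes. The count was 28 of 31 in DE cells, against 58.0%, and 28 of 31 in WT cells, against 56.7%. With DC replicate 2 alone, 29 genes had a region, against 68.1% of all protein-coding genes. The adhesion genes were also longer, with a median body of 39.0 kb against 17.2 kb for all protein-coding genes. Per 100 kb searched, they held 5.39 regions called in both libraries in DC cells, 5.35 in DE cells and 4.90 in WT cells. The corresponding densities over all protein-coding genes were 2.12, 1.94 and 1.82 regions per 100 kb in DC, DE and WT cells. Inside gene bodies alone, the WT density was 5.06 regions per 100 kb for the adhesion genes and 1.81 for all protein-coding genes.

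Of the 561 regions, 93 were called in all 6 libraries, which is 16.6%, against 9.05% of all 259446 regions. All regions include those far from any gene. Within 10 kb of a protein-coding gene, 17761 of 161940 regions were called in all 6. At the other end, 328 of the 561 were called in a single library, or 58.5% against 76.7% of all regions, and 176 of these 328 came from DC replicate 1. That library had the longest peak list, with 169943 peaks, while the other 5 held 50221 to 82080. It called 389 of the 561 regions, DC replicate 2 called 155, DE replicates 173 and 189, and WT replicates 227 and 197. Regions called in both libraries were therefore used for each genotype, and levels were compared only over regions called in all 6.

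Levels are given as the summit pileup, the number of fragments stacked over the peak's highest point, recovered from the deposited peak statistics. Pileups were scaled so that the median difference between libraries was 0 over the 23480 regions called everywhere. Before scaling, the median pileup over those regions was 58 and 24 in DC replicates, 42 and 32 in DE replicates and 34 and 34 in WT replicates. The 93 adhesion regions were of ordinary strength among them. Their median percentile by mean scaled pileup was 52.5, and 8 of them (8.60%) were in the strongest 10%. Of the 93, 70 lay inside one of the 31 genes and 23 beside one.

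**Figure D1:**
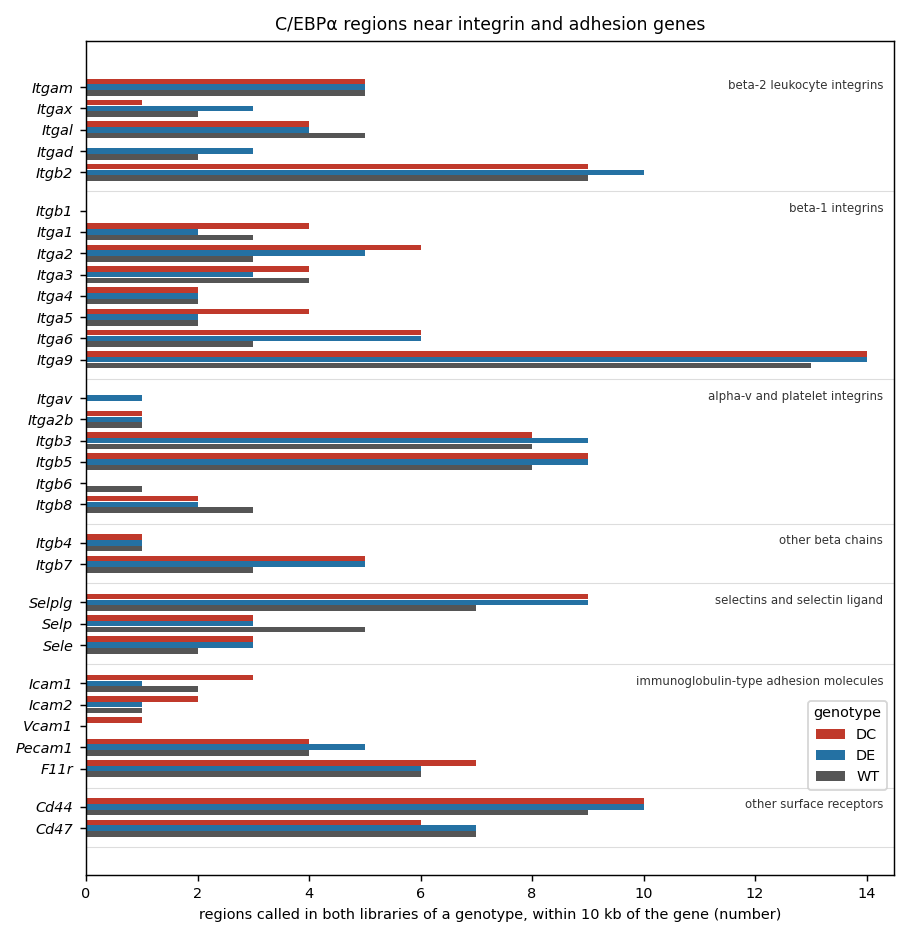
Number of C/EBPα regions within 10 kb of each gene (horizontal axis) that were called in both libraries of DC (red), DE (blue) or WT (grey) cells, with genes down the page by family. Itga9 has the longest bars, 14 in DC, 14 in DE and 13 in WT, and Itgb1 has none.

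The β2 leukocyte integrins were densely bound, at 8.40 regions per 100 kb in WT cells, and of the 5 genes the shared chain carried the most regions. Itgb2 had 9 regions called in both libraries in DC cells, 10 in DE cells and 9 in WT cells, and 9 regions were called in all 6 libraries. Its strongest, at chr10:77550860-77551350 inside the gene, had scaled pileups of 153 and 221 in DC, 166 and 196 in DE and 232 and 234 in WT. Both WT libraries lay above all 4 others there, the nearest being DC replicate 2. The other 8 regions of Itgb2 called everywhere were weaker, with scaled pileups of 8.37 to 66.9 over all libraries.

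Itgal encodes the αL chain, which with the Itgb2 product binds Icam1 and Icam2. Its strongest region, at chr7:127295939-127296502, spans the gene's lower-coordinate end and stood at percentile 98.4 of the regions called everywhere. Scaled pileups were 253 and 175 in DC, 218 and 210 in DE and 261 and 250 in WT, so the DC libraries enclosed those of DE and reached into the range of WT. A weaker region about 1 kb further into Itgal, at chr7:127297090-127297450, is described with the comparisons.

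Itgam had 5 regions in each genotype, and the same 5 were called in all 6 libraries. The strongest, at chr7:128063276-128063714 and 0.944 kb past the start, had scaled pileups of 94.5 and 61.3 in DC, 82.8 and 69.1 in DE and 91.8 and 66.2 in WT. Replicate 1 was the higher in every genotype, and the genotypes overlapped. At the promoter region printed above, the scaled pileups were lower, 16.1 and 15.3 in DC, 19.2 and 20.4 in DE and 13.1 and 16.8 in WT. Further into the gene, the region at chr7:128065660-128065889, had 76.0 and 58.3 in DC, 44.3 and 52.1 in DE and 37.3 and 39.9 in WT, an order without overlap between genotypes that did not pass the test described below.

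Itgax, the αX chain that marks dendritic cells, and Itgad, the αD chain of tissue macrophages, are neighbours of Itgam on chromosome 7 and carried fewer regions. Itgax had 1 region in DC cells, 3 in DE cells and 2 in WT cells, of which 1 was called everywhere. That region, at chr7:128133579-128134033, had scaled pileups of 135 and 65.9 in DC, 108 and 83.8 in DE and 112 and 104 in WT, with the DC libraries outermost on both sides. Itgad had no region called in both DC libraries, 3 in DE cells and 2 in WT cells, and none in all 6. Its best-covered region, at chr7:128180117-128180320, was called in every library except DC replicate 1, with unscaled pileups of 13 in DC replicate 2, 11 and 11 in DE and 15 and 11 in WT.

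**Figure D2:**
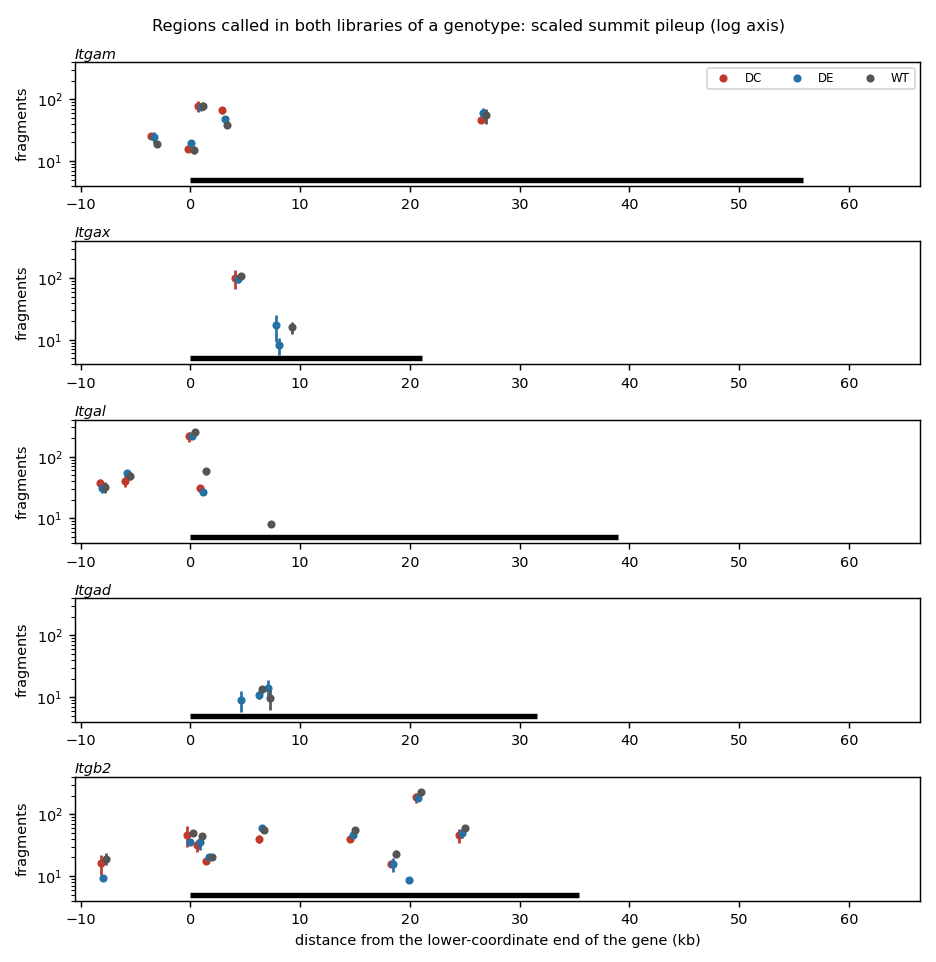
C/EBPα regions along the 5 β2 integrin genes, with distance from the lower-coordinate end of the gene in kb on the horizontal axis and scaled summit pileup on a log vertical axis. Points are the mean of the 2 libraries of DC (red), DE (blue) or WT (grey) cells where both called the region, shifted slightly for clarity, thin lines join the replicates, and the black bar is the gene body. The points of Itgb2 are spread along the gene, whereas those of Itgax and Itgad lie within 10 kb of its lower end.

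The β1 integrins held 4.21 regions per 100 kb in DC cells, 3.58 in DE cells and 3.16 in WT cells. With the αv and platelet integrins, at 3.32 in DC, 3.65 in DE and 3.48 in WT, they were the least densely bound families. Itgb1, the β chain shared by all β1 integrins, had no region called in both libraries of any genotype, and of its 6 regions the DC replicates called 4 and 0, the DE replicates 1 and 1 and the WT replicates 1 and 2. Itga9, whose α9 chain binds tenascin and Vcam1, is the longest of the 31 genes at 294.3 kb and had the most regions, 14 in DC cells, 14 in DE cells and 13 in WT cells. Per 100 kb this was 4.45 in DC, 4.45 in DE and 4.14 in WT, close to the average of the 31 genes in WT cells.

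Its strongest region, at chr9:118706206-118706888, had scaled pileups of 81.5 and 58.3 in DC, 92.9 and 92.9 in DE and 79.7 and 68.3 in WT. The promoter region of Itga4 was of similar height, with 67.3 and 69.0 in DC, 84.5 and 91.7 in DE and 93.9 and 83.0 in WT. Both DE libraries were the highest at the Itga9 region, and both DC libraries were the lowest at Itga4. The α4 chain lets progenitors adhere to Vcam1 on stromal cells of the marrow.

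In WT cells the remaining β1 partners had 2 to 4 regions each, beside medians of 3 over the 31 genes and 1 over all protein-coding genes. Itga2, a collagen receptor chain, had 6 regions in DC cells, 5 in DE cells and 3 in WT cells, and the laminin receptor chain Itga6 had 6, 6 and 3 in DC, DE and WT cells. Itga5, the fibronectin receptor chain, had 4 in DC cells, 2 in DE cells and 2 in WT cells. Itga3, another laminin receptor chain, had 4, 3 and 4 in DC, DE and WT cells, and Itga1 had 4, 2 and 3.
The strongest region of each, among those called everywhere, had scaled pileups between 9.08 (Itga1, WT replicate 1) and 98.8 (Itga5, WT replicate 2). Regions of Itga3 and Itga5 that were called everywhere lay outside the genes, and those of Itga1, Itga2 and Itga6 inside.

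Among the αv and platelet integrins, binding was concentrated at Itgb3 and Itgb5. Itgb3, the β chain of the platelet fibrinogen receptor, had 8 regions in DC cells, 9 in DE cells and 8 in WT cells. Itgb5, a vitronectin receptor β chain, had 9, 9 and 8 in DC, DE and WT cells. Itga2b, the platelet partner of Itgb3, had 1 region in each genotype.
The strongest region near Itgb5, at chr16:33950887-33951404 and 1.55 kb beyond its end, had scaled pileups of 313 and 267 in DC, 241 and 328 in DE and 312 and 278 in WT. It stood at percentile 99.3, and the genotypes overlapped fully. The strongest of Itgb3, inside the gene at chr11:104608986-104609792, had 122 and 79.7 in DC, 100 and 86.1 in DE and 123 and 54.6 in WT. The WT replicates lay furthest apart there and enclosed the other 4 libraries.
Itgav and Itgb6, whose products, like that of Itgb8, activate latent TGF-β, were sparsely bound. Itgav had 1 region in DE cells and none called in both libraries of DC or WT cells. Itgb6 had 1 in WT cells and none in DC or DE cells, and Itgb8 had 2, 2 and 3 in DC, DE and WT cells.

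The highest pileup of all 93 regions belonged to the neighbourhood of Itgb7, the β chain that with α4 directs lymphocytes to the gut. The region, at chr15:102243267-102244077, lay 9.86 kb upstream of Itgb7 and inside another gene, Rarg, which encodes a retinoic acid receptor. It had scaled pileups of 397 and 373 in DC, 361 and 387 in DE and 465 and 405 in WT, at percentile 99.8. Both WT libraries were higher than all others, by little beside the distance between the WT replicates. Itgb7 itself contained 2 regions called everywhere, with scaled pileups of 18.1 to 51.9, and Itgb4, the β chain of epithelial hemidesmosomes, had 1 region in each genotype.

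The selectin genes were the most densely bound family, with 10.9 regions per 100 kb in WT cells. Selplg, the ligand that leukocytes present to P-selectin, led all 31 genes in density. It had 9 regions in DC cells, 9 in DE cells and 7 in WT cells, which was 25.9, 25.9 and 20.2 per 100 kb, and 7 were called everywhere. Of these 7, 3 lay inside Selplg. The selectin genes themselves were less dense in WT cells, with 9.13 regions per 100 kb at Selp and 5.14 at Sele, beside 4.90 over the 31 genes. The strongest near Selplg lay 9.15 kb away inside Coro1c, at chr5:113841676-113842926, with scaled pileups of 185 and 129 in DC, 131 and 129 in DE and 132 and 123 in WT.
DC replicate 1 stood above the other 5 libraries, which lay close together. Inside Selp, the P-selectin of platelets and endothelium, the region at chr1:164135230-164136428 had 236 and 209 in DC, 226 and 212 in DE and 245 and 220 in WT, with overlap among all genotypes. Sele, the endothelial E-selectin, had 3 regions in DC cells, 3 in DE cells and 2 in WT cells. The region at chr1:164060028-164060429, 1.54 kb beyond its end, was called everywhere, with 36.4 and 47.5 in DC, 51.9 and 36.2 in DE and 53.5 and 41.0 in WT, and the genotypes overlapped.

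Of the immunoglobulin-type molecules, F11r, a tight-junction and platelet receptor, was the most bound, with 7 regions in DC cells, 6 in DE cells and 6 in WT cells. Pecam1, a junctional molecule of endothelium and leukocytes, had 4, 5 and 4 in DC, DE and WT cells. Icam1, an inducible ligand of β2 integrins, had 3, 1 and 2 in the same order and none called everywhere. Vcam1, the partner of α4 integrin, had 1 region in DC cells and none in DE or WT cells.
Icam2, a constitutive ligand of the αL integrin, had 1 region called everywhere, at chr11:106387095-106388298 across the higher-coordinate end of the gene. It reached scaled pileups of 63.6 and 85.9 in DC, 80.3 and 83.8 in DE and 99.9 and 86.2 in WT. Both WT libraries were the highest, with WT replicate 2 barely above DC replicate 2.

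Cd44 had 10 regions in DC cells, 10 in DE cells and 9 in WT cells, and Cd47 had 6, 7 and 7. The Cd47 promoter region printed above, chr16:49854754-49855796 in full, had scaled pileups of 161 and 155 in DC, 131 and 166 in DE and 170 and 163 in WT. It had the highest pileups of the 5 regions that overlapped a promoter, and the genotypes overlapped. Its summit lay 672 bases before the start, outside the 250 bases taken as promoter, so these pileups are not those at the promoter itself. The promoter region of Cd44 was weaker, with 18.5 and 27.6 in DC, 20.9 and 26.1 in DE and 28.3 and 55.7 in WT.

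**Figure D3:**
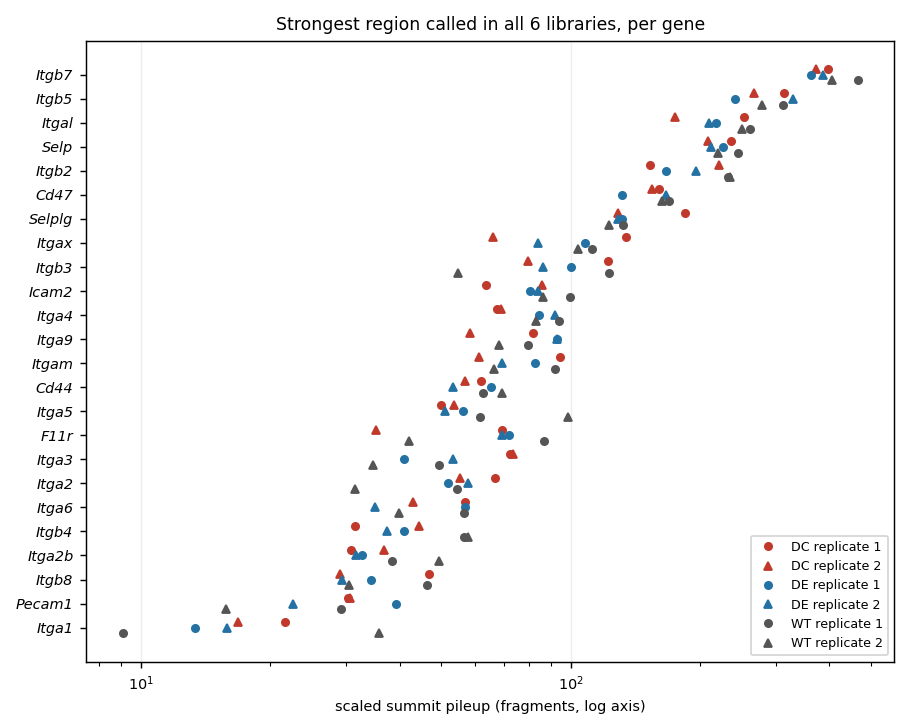
Scaled summit pileup, in fragments on a log axis, of the strongest region called in all 6 libraries for 24 of the 25 genes that had one (Sele is not drawn). Colours are DC (red), DE (blue) and WT (grey), and circles and triangles are replicates 1 and 2. From 361 to 465 at Itgb7 down to 9.08 to 35.7 at Itga1, the genes form a gradient in which the ranges of many neighbours overlap, such as 67.3 to 93.9 at Itga4 and 58.3 to 92.9 at Itga9.

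Differences between genotypes were tested with limma on the log2 scaled pileup over all 23480 regions called everywhere, with Benjamini-Hochberg adjustment over all of them at 0.05. Between replicates, the median absolute log2 difference over the 93 regions was 0.39 in DC, 0.30 in DE and 0.37 in WT. Without a batch term, 0 of the 93 regions and 0 of the 23480 passed in each of the 3 comparisons. At an unadjusted p under 0.05, 7 of the 93 regions differed in DC against WT, 2 in DE against WT and 1 in DC against DE. Over all regions the unadjusted counts were 1871, 1144 and 554 in the same order of comparisons, or 7.97%, 4.87% and 2.36%. DC and DE were set against the same 2 WT libraries, so their differences from WT are not independent. No exact permutation test of a single region is reported, because 2 against 2 libraries cannot go below a two-sided p of 0.333.

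With the batch of the labels as a term, 1 of the 93 regions was higher in DC than in WT and 0 were lower, against a background of 3.15% of all regions higher and 1.15% lower. In DE against WT the batch fit called 0 of 93, against a background of 1.12% higher and 0.268% lower. In DC against DE it called 0 of 93, against 0.00852% higher and 0.0213% lower. At an unadjusted p under 0.05 in the batch fit, 10 of the 93 regions differed in DC against WT (10.8%, against 17.0% of all regions), 6 in DE against WT (6.45%, against 12.0%) and 6 in DC against DE (6.45%, against 8.16%). The share called among the adhesion regions was thus near or below that among all regions in each comparison.

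The called region lay inside Cd44, the receptor by which leukocytes and progenitors hold hyaluronan, at chr2:102863498-102863885 and 37.9 kb into the gene. Scaled pileups there reached 45.7 and 46.0 in DC, 26.8 and 32.8 in DE and 23.2 and 15.8 in WT. The genotypes did not overlap, with DC highest and WT lowest. The log2 difference of DC from WT was 1.26 with a standard error of 0.36 and a limma adjusted p of 0.0235 with the batch term, and an adjusted p of 0.400 without it. Within batches the log2 difference was 0.98 in batch 1 and 1.55 in batch 2. In the batch fit the adjusted p was 0.216 without DC replicate 1, 0.340 without DC replicate 2, 0.0239 without WT replicate 1 and 0.397 without WT replicate 2. Over every alternative run, the log2 difference was 0.91 to 2.12 and the limma adjusted p 0.0235 to 1.00. The DE libraries lay 0.63 above WT on the log2 scale, with an adjusted p of 0.500 with the batch term.

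The other 7 regions of Cd44 called everywhere did not share this order. At the promoter region WT was highest, and at 88.7 kb into the gene the scaled pileups were 53.1 and 41.4 in DC, 87.8 and 61.2 in DE and 63.6 and 58.8 in WT. Here DC was lowest, below DE and WT without overlap. At 33.8 kb into the gene, DC had 32.7 and 29.1, DE had 30.1 and 30.6 and WT had 25.2 and 17.9, the only other region of Cd44 with both DC libraries above both WT libraries.

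**Figure D4:**
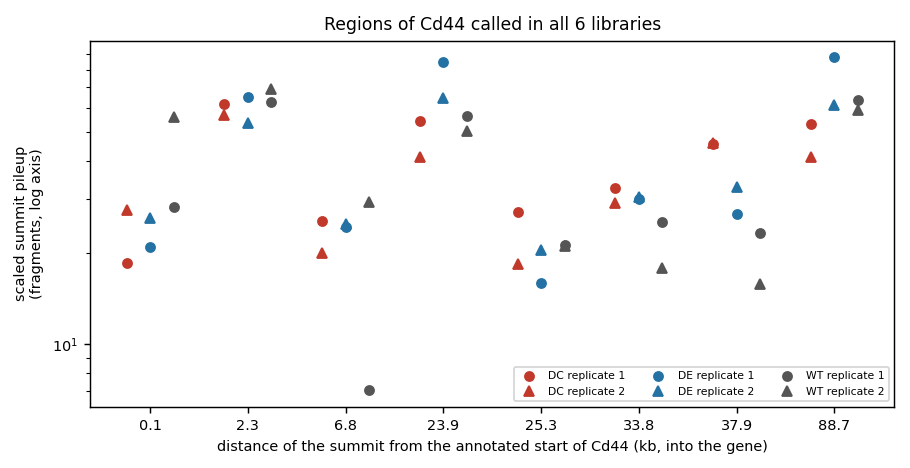
Scaled summit pileup, in fragments on a log axis, of the 8 regions of Cd44 called in all 6 libraries, placed by the distance of their summit from the gene's start in kb (not to scale). DC (red), DE (blue) and WT (grey) stand side by side, and circles and triangles are replicates 1 and 2. At 37.9 kb the DC points (45.7 and 46.0) lie above the DE points (26.8 and 32.8) and the WT points (23.2 and 15.8).

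In DC or DE against WT, another 4 regions came nearest to the threshold, with an unadjusted p under 0.01 in the batch fit. That limit was chosen after their values were seen, and DC against DE was not searched in this way. Without the batch term, their limma adjusted p ran from 0.479 (Itgb3, DC against WT) to 0.988 (Itga9, DE against WT). The region of Itgal at chr7:127297090-127297450 had scaled pileups of 27.2 and 35.3 in DC, 28.4 and 24.9 in DE and 51.5 and 65.2 in WT, so that DC and DE both lay below WT. Its log2 difference was -0.90 for DC against WT with a limma adjusted p of 0.114, and -1.12 for DE against WT with an adjusted p of 0.0661, both with the batch term. When libraries were scaled by their background floor, the smallest background in each peak list, the differences were -0.04 for DC and -0.57 for DE.
A region of Itgb3 at chr11:104630302-104630558 had 30.9 and 23.0 in DC, 19.2 and 17.0 in DE and 13.1 and 10.5 in WT, an order without overlap like that of the Cd44 region. The log2 difference of DC from WT was 1.18 with an adjusted p of 0.0788 in the batch fit of limma, and 2.04 with an adjusted p of 0.0276 when the floor set the scale. A region 1.13 kb upstream of Itga3, at chr11:95077970-95078451, had 72.3 and 73.6 in DC, 41.0 and 53.2 in DE and 49.4 and 34.7 in WT, with a DC difference of 0.82 and an adjusted p of 0.105 in the same limma fit. DC was the highest there and DE overlapped WT. The DC difference was 1.17 without WT replicate 1, 0.46 without WT replicate 2 and 1.68 with the floor as scale. The region of Itga9 at chr9:118669688-118670132 had 38.9 and 23.0 in DC, 26.8 and 17.0 in DE and 50.5 and 39.9 in WT, with a DE difference of -1.07 and an adjusted p of 0.111 in the same limma fit, and a difference of -0.52 with the floor as scale.

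Over the 93 regions the log2 difference had a median of -0.08 for DC against WT, -0.09 for DE against WT and 0.03 for DC against DE, beside -0.02, -0.00 and -0.00 over all regions. It was negative at 60 and positive at 33 regions for DC, negative at 58 and positive at 35 for DE, and negative at 40 and positive at 53 for DC against DE. The share above 0 was thus 35.5%, 37.6% and 57.0% in the 3 comparisons, beside 48.2%, 49.6% and 49.7% of all regions. This lean changed when single libraries were left out, more so without a batch term. Without that term, the median for DC against WT was -0.14 without DC replicate 1 and 0.00 without DC replicate 2, where 50.5% of the regions were above 0. It was -0.09 without WT replicate 1 and -0.17 without WT replicate 2. That for DE against WT was -0.01 without DE replicate 2, with 47.3% above 0, and -0.01 without WT replicate 1, with 46.2% above 0. It was -0.09 without DE replicate 1 and -0.16 without WT replicate 2. For DC against DE it was -0.05 without DC replicate 1 and -0.05 without DE replicate 2. It was 0.08 without DC replicate 2 and 0.07 without DE replicate 1. With the batch term, leaving out 1 library gave medians of -0.15 to -0.06 for DC against WT. The range was -0.10 to -0.03 for DE against WT and 0.00 to 0.05 for DC against DE. The differences ran from -0.90 to 1.26 for DC against WT, from -1.12 to 0.98 for DE against WT and from -0.95 to 0.78 for DC against DE. They stayed within 1 log2 unit at 95.7% of the regions for DC against WT, 96.8% for DE against WT and 100% for DC against DE, beside 94.4%, 96.7% and 98.4% of all regions.

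By family, the 19 regions of the β2 integrins had medians of -0.27 for DC and -0.18 for DE against WT, with 15 and 13 of the 19 below 0. The 22 regions of the β1 integrins had medians of -0.05 and -0.10 in DC and DE, and the 16 of the αv and platelet integrins -0.03 and -0.04. The 4 regions of Itgb4 and Itgb7 had medians of -0.36 and -0.38 in DC and DE, the 11 of the selectin group -0.04 and -0.09, the 7 of the immunoglobulin-type molecules -0.10 and -0.18, and the 14 of Cd44 and Cd47 -0.15 and 0.06. None of the β2 or β1 regions passed the test in either comparison.
Both DC libraries were higher than both WT libraries at 15 of the 93 regions (16.1%, against 17.2% of all regions) and lower at 26 (28.0%, against 16.8%). Both DE libraries were higher than both WT libraries at 14 (15.1%, against 16.1%) and lower at 21 (22.6%, against 16.1%). Both DC libraries were higher than both DE libraries at 14 (15.1%, against 15.0%) and lower at 17 (18.3%, against 15.3%). These signs depend on the scaling. The floors were 1.11 and 0.368 fragments in DC, 1.53 and 0.408 in DE and 1.33 and 0.902 in WT. With libraries scaled by the floor, both DC libraries were higher than both WT libraries at 67 of the 93 regions (72.0%, against 64.1% of all regions) and lower at 0 (against 0.571%), while the median over all regions was itself 0.84 for DC and 0.55 for DE against WT.

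**Figure D5:**
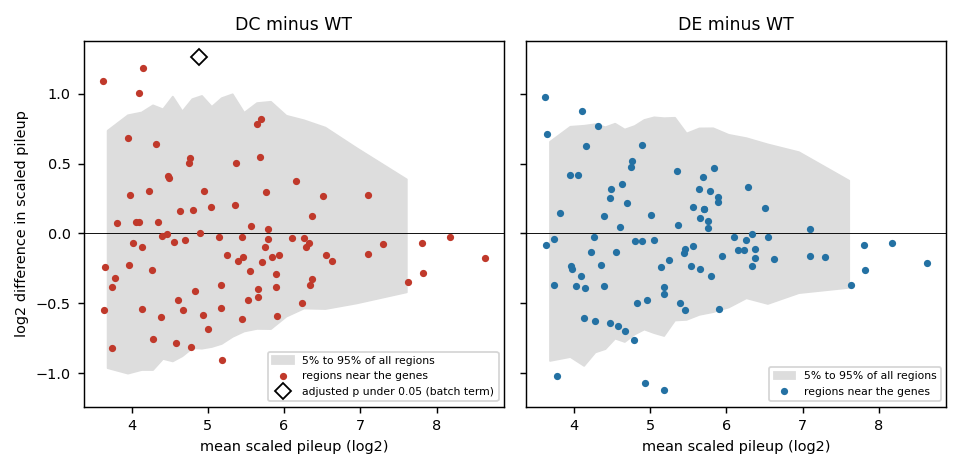
Log2 difference in scaled pileup (vertical axis) against the mean log2 scaled pileup (horizontal axis) for the 93 regions, DC minus WT on the left and DE minus WT on the right. Grey bands hold 5% to 95% of all regions at that level, and the diamond is the Cd44 region at 1.26 with an adjusted p of 0.0235 in the limma fit with the batch term. Most points lie inside the bands in both panels.

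Some regions had a peak in both replicates of a genotype while another genotype had none. Of the regions called in both DC libraries, 8 of 133 were in neither WT library (6.02%, against 10.9% of all such regions), and of those in both WT libraries 5 of 121 were in neither DC library (4.13%, against 3.23%). For DE the counts were 6 of 132 (4.55%, against 6.55%) and 8 of 121 (6.61%, against 5.28%). Between DC and DE, 11 of 133 DC regions were in neither DE library (8.27%, against 7.31%) and 3 of 132 DE regions in neither DC library (2.27%, against 2.14%). The shares near the adhesion genes fell short of the background most where DC had a peak and WT had none, and a missing call says only that no peak passed the authors' threshold.

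All of these regions were weak. The leading examples called in DC and not in WT were one in Itga9, with unscaled pileups of 31 and 14 in DC and 18 in DE replicate 2, one in Itga5, with 14 and 14 in DC, and one in Vcam1, with 15 and 9 in DC and 8 in DE replicate 2. The reverse was led by a region of Itgax at chr7:128138457-128138613, with 19 and 12 in WT and no peak in the DC and DE lists. Itga6 held one region with 27 and 11 in DC and 22 and 16 in WT that had no DE peak, at chr2:71842899-71843151, and another, at chr2:71847538-71847978, with 17 in DC replicate 1 and 20 and 11 in DE that had no WT peak. The smallest pileups that passed the authors' threshold were 5 and 4 in DC, 7 and 4 in DE and 6 and 5 in WT.

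The genes that switch integrins on and tie them to actin were looked at beside the receptors. Of 32 such genes, 30 had a region in DC cells, 28 in DE cells and 29 in WT cells, against 60.7%, 58.0% and 56.7% of all protein-coding genes. Among their 119 regions called everywhere, at 27 genes, the batch fit called 2 higher and 1 lower in DC than in WT. Over all regions 3.15% were higher and 1.15% lower. In DE against WT it called 2 higher and 0 lower, against 1.12% and 0.268% of all regions. In DC against DE it called none, against 0.00852% higher and 0.0213% lower. Without the batch term none passed.
The focal-adhesion adaptor paxillin (Pxn) had a region on chromosome 5 with scaled pileups of 86.5 and 39.9 in DC, 36.0 and 37.4 in DE and 14.1 and 10.5 in WT, and the actin cross-linker Actn1 one on chromosome 12 with 63.0 and 44.5 in DC, 42.7 and 41.9 in DE and 18.2 and 13.7 in WT. At both, all 4 DC and DE libraries were above WT. With the batch term in limma, Pxn rose by 2.27 in DC (adjusted p 5.26e-06) and 1.59 in DE (adjusted p 0.00573) on the log2 scale. Actn1 rose by 1.75 in DC (limma adjusted p 0.000342) and 1.42 in DE (adjusted p 0.0120), also with the batch term. At Cyth1, which encodes a β2-integrin-binding exchange factor, DC fell by 1.15 (limma adjusted p 0.00643, with the batch term), with 37.7 and 38.3 in DC, 72.8 and 52.1 in DE and 88.8 and 79.9 in WT. This fall depended on the scaling. With libraries scaled by the background floor, the batch fit called 0 of all 23480 regions lower in DC than in WT, that of Cyth1 included.

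Of 28 further integrin, adhesion and matrix genes outside the 31, 21 had a region in DC cells, 19 in DE cells and 16 in WT cells, against the same shares of all genes. Among their 30 regions called everywhere, 0 passed in any comparison with the batch term, against the shares of all regions given above. As context for the sorted cells, all 3 genes of the sort gate (Kit, Flt3 and Cd34) and all 6 neutrophil and monocyte genes looked at had a region called in both libraries of every genotype, and the 3 T and NK cell genes (Cd3e, Cd8a and Ncr1) had none. The megakaryocyte genes had regions at 2 of 3 in DC cells, 2 of 3 in DE cells and 3 of 3 in WT cells, and the endothelial genes at 1, 2 and 2 of 3. Bound genes do not check the identity of the cells.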

How the data were processed

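C/EBPα CUT&RUN was analysed from 6 deposited peak lists, 1 per library, and a deposited merged list. The submitters' processing notes name build mm10 and the tools MACS2 2.2.9.1, HOMER, Bowtie2, Trimmomatic and SAMtools, while their roles, other versions and the use of IgG as control are not given in the sources used here. In each deposited list the authors give a fold over background (a ratio), a −log10 p-value, a −log10 q-value from calls at a q of 0.1, and a score that is 10 times the −log10 q. The deposited merged list carries 1 constant value and no measurement, and its 259446 coordinates matched the merge made here.

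The pileup k was solved as the whole number for which (k + 1)/(background + 1) is the fold and the Poisson tail is the p-value, within 5% of the step between whole numbers. In the list with the fewest solutions, 99.99% of the peaks had one. Regions, pileups and counts were computed with Python 3.11.15, numpy 2.4.6, pandas 2.3.3 and scipy 1.17.1, figures with matplotlib 3.10.9, and tests with limma 3.58.1 in R 4.3.3 (all 6 libraries, trended variance), tested on simulated data. Coordinates are 1-based. The annotation gives strand for the 21 genes with a promoter window only.

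The planned fit had no batch term. The labels make the replicate number the batch, and deviations of same-numbered libraries correlated over regions with r of 0.55 between DC and WT, 0.41 between DE and WT and 0.38 between DC and DE (0.21, 0.12 and 0.20 over the 93 adhesion regions), so the batch fit is given where it changes a call. Named were the strongest region of a gene called in all 6 libraries, regions past an adjusted p of 0.05, and up to 5 regions per direction and pair that had peaks in both replicates of a genotype while another had none. The strongest region near Sele is not reported here. Genes, lists and rules were chosen with earlier results of these data known. Alternatives varied the distance, q, overlap, scaling, batch term, the measure and the libraries.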

Additional observations from a re-analysis of the deposited data

How the results depend on the processing

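Counts of genes with a region were 23 to 31 of the 31 genes under every alternative run. They could rise little above the reported counts, while the share of all protein-coding genes moved with the setting. Within 1 kb they were 25 in DC, 23 in DE and 26 in WT, against 50.5%, 47.5% and 46.3% of all genes. Within 50 kb they were 29 in each genotype, against 75.8%, 74.3% and 73.5%. At a q of 0.001 they were 26 to 27 in the 3 genotypes, against 53.8% to 58.6%. With a single library they were 29 to 31 in DC, against 68.1% to 89.0%. In the same setting they were 30 to 31 in DE, against 68.2% to 69.7%, and 30 in WT, against 70.8% to 78.0%. The replicate block, with batch as a term, moved the limma calls over all regions to 1008 in DC against WT, 327 in DE against WT and 7 in DC against DE, and near the adhesion genes to 1, 0 and 0. On regions called in the 4 libraries compared, the replicate block called 915, 254 and 44 over all regions and 1, 0 and 0 near the adhesion genes. With the background floor as scaling, the replicate block called 673, 6 and 0 over all regions, every one of them higher and 0 lower. Near the adhesion genes it called 4, 0 and 0. These 4 were the regions in Cd44 and Itgb3 described above, and regions of Itga3 and Itga9 other than those described above. The latter regions start at chr11:95082741 (Itga3) and chr9:118802014 (Itga9). Leaving out DC replicate 1, DC replicate 2, WT replicate 1 or WT replicate 2, the replicate block called 227, 192, 710 or 329 in DC against WT (192 to 710). Leaving out DE replicate 1, DE replicate 2, WT replicate 1 or WT replicate 2, it called 164, 110, 258 or 97 in DE against WT (97 to 258). It called 0 to 13 in DC against DE, with 0 to 1 near the adhesion genes for DC against WT and 0 otherwise. Without the block, leaving out 1 library called 0 to 4 in DC against WT and 0 otherwise. The DC against WT differences given above for Cd44, Itgb3, Itga3 and Itgal, and those of DE against WT for Itgal and Itga9, kept their sign under every alternative run. At the same regions, Itga9 in DC against WT was -0.59 and, with floor scaling, 0.27, Itga3 in DE against WT was 0.17 and as low as -0.18 with the replicate block and without WT replicate 2, and Itgal in DC against DE was 0.22 and, with the replicate block and without DE replicate 2, -0.06. The cause of these shifts was not tested. The count of regions with both DC libraries below both WT libraries, 26 as reported, was 0 under floor scaling, where 0.571% of all regions were lower, an alternative chosen after seeing the data. Read depth is unknown, and 2 libraries a genotype limit the precision.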
